A study of Mus musculus with 2 samples.

Results

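The 10 genes described here, of 32285 genes listed in each count matrix, encode ligands and receptors of the tumor necrosis factor (TNF) superfamily. They are the ligand genes Tnf, Tnfsf9, Tnfsf14 and Ltb and the receptor genes Tnfrsf1a, Tnfrsf1b, Tnfrsf23, Tnfrsf9, Fas and Cd40, each found under a single symbol in both matrices and chosen by name. They were measured in GR1+ cells of 4T1 tumors, where GR1 is the antigen shared by Ly6G and Ly6C, carried by neutrophils and monocytic cells. 4T1 is a mouse mammary carcinoma line, and the groups are the parental line, 4T1P, whose tumors do not respond to anti-PD1 (non-responding), and 4T1M, its derivative mutagenized with MNNG and kept as a mixture of clones, whose tumors respond (responding).

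Tumors grew in the mammary fat pad of BALB/c mice, female by the methods and 6 to 8 weeks old by the sample records, and were taken without anti-PD1 treatment. GR1+ cells were isolated with magnetic beads, and 5 mice were pooled by the series record into 1 droplet library (10x Genomics) per group, although a legend of the study gives fewer mice, so the size of the pool is uncertain. With 1 pooled library per group there is no replicate, so the spread between mice is unknown, no test between the groups was run, and each interval below is a 95% interval for counting error only. The comparison of the libraries is therefore a comparison of 2 pools, and line, pool and library cannot be told apart.

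TNF superfamily ligands are mostly trimers anchored in the cell membrane, some of which are shed, and they act on receptors that either recruit TRAF adaptors and switch on NF-kappaB or, where they carry a death domain, can also start cell death. Myeloid cells are a main source of TNF in inflamed tissue and in tumors. Other members, such as the pair Tnfsf9 and Tnfrsf9 or Cd40, are best known for signals exchanged between myeloid cells and lymphocytes.

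Of 7951 barcodes, 5187 were retained, namely those in which between 500 and 5000 genes were seen and no more than 10% of the UMIs (unique molecular identifiers, which count captured RNA molecules) were mitochondrial. Neutrophils were cells with S100a8 and S100a9 at 1.5% of UMIs or more and C1qa, C1qb, C1qc and Apoe under 0.5%, and there were 612 in the non-responding and 1686 in the responding library. Macrophages had S100a8 and S100a9 under 1.5% and the sum of C1qa, C1qb, C1qc, Apoe, Csf1r, Cd68 and Fn1 at 0.3% or more, and there were 798 and 976. The summed UMIs were 2502947 and 6580005 in neutrophils and 8767210 and 9343315 in macrophages, at medians of 3054.5 and 2957.5 UMIs per neutrophil and 9727 and 9213.5 per macrophage. Levels are UMIs of a gene per 1000000 UMIs of the class (CPM). Genes outside the rule bore out the class names: the summed level of Csf3r, Cxcr2, Retnlg, Mmp9, Hdc and Trem1 was 11073 and 9272 CPM in neutrophils against 227 and 253 CPM in macrophages, and among macrophage genes Adgre1 was at 107 and 102 CPM in macrophages against 2.40 and 4.71 CPM in neutrophils, Ms4a7 at 191 and 148 CPM against 5.59 and 6.84 CPM, and Lgmn at 1523 and 1325 CPM against 57.9 and 83.4 CPM. Small classes of 73 and 96 T/NK cells and 31 and 27 B cells serve for comparison, and 212 and 676 retained cells met no definition and are called unclassed. The libraries shared 5 barcodes, of which 3 were retained in both.

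On GRCm38, Tnf lies on the minus strand of chromosome 17 (chr17:35199381-35202007) and Ltb on the plus strand beside it (chr17:35194439-35196320), with 3060 bases between them. Tnfsf9 (chr17:57105325-57107757, plus) and Tnfsf14 (chr17:57189492-57194177, minus) form a further pair of ligand genes on that chromosome, 81734 bases apart. Tnfrsf1b (chr4:145213463-145246870, minus) and Tnfrsf9 (chr4:150914562-150946102, plus) share chromosome 4. Tnfrsf1a is at chr6:125349362-125362484 (plus), Fas at chr19:34290666-34327772 (plus), Cd40 at chr2:165055627-165072948 (plus) and Tnfrsf23 at chr7:143665809-143685872 (minus), next to its relatives Tnfrsf22 and Tnfrsf26. Of the 31-base stretches of Tnfrsf23 transcripts, 26.7% also occur in other genes, nearly all of these in Tnfrsf22, so that reads from the shared stretches may be dropped or split and the Tnfrsf23 level is less certain for it. Tnfrsf9, Tnfsf9 and Tnfrsf23 overlap genes on the opposite strand (Camta1, Gm11110 and E230032D23Rik), and the strand setting of the counting is not given in the sources used here. Fas and Ltb overlap genes on their own strand (Gm27818 and Mir6973a), where reads may be ambiguous under any strand setting.

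RefSeq (GRCm38.p6) gave the 250 bases before the start site of 8 of the 10 genes, in 9 windows because Tnfrsf9 has a pair of start sites. The windows were searched on both strands for the NF-kappaB consensus, since several of these receptors switch on NF-kappaB. It was found in the windows of Ltb and of the downstream start site of Tnfrsf9, and 7.25% of 32851 windows of all genes hold it. The window of Tnf is shown with them because Tnf had the clearest difference between the libraries. It holds no match to this consensus, and a TATAAA box 29 bases before the start, a box present in 12.4% of all windows. The capitals mark the NF-kappaB consensus, which in Tnfrsf9 is a run of overlapping matches, and each sequence is written 5′ to 3′ along the gene's own strand.
Tnf, chr17:35202008-35202257, minus strand: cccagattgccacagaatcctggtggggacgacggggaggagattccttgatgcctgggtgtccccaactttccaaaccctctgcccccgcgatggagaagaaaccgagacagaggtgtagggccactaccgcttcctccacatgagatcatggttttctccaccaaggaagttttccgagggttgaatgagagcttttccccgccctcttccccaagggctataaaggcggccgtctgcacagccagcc
Ltb, chr17:35194257-35194506, plus strand: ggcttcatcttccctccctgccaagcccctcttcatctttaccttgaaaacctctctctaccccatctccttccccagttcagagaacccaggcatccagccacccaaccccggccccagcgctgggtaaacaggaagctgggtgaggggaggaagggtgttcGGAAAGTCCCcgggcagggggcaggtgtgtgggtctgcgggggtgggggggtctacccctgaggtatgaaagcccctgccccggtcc
Tnfrsf9, chr4:150927749-150927998, plus strand: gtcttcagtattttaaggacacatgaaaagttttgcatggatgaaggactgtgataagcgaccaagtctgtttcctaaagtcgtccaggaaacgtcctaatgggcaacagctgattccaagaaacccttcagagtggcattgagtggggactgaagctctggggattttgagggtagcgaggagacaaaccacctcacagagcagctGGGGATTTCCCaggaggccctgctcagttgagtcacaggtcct
These matches are letters in a window and no binding was measured.

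Tnf, the founding cytokine of the family, was abundant in both myeloid classes. Over a whole class it stood higher in the responding library, above all in neutrophils, though not within every macrophage state described below. In neutrophils it had 292 CPM (95% counting interval 272 to 314) in the non-responding library and 693 CPM (673 to 714) in the responding one, a log2 ratio of 1.24 (1.13 to 1.36). In macrophages it had 628 CPM (612 to 645) and 777 CPM (759 to 795), and the log2 ratio was 0.31 (0.26 to 0.36). The intervals of the libraries were apart in both classes, and the ratio in neutrophils was beyond 1.5-fold while that in macrophages was not. Markers of other cells also differed between the neutrophils of the libraries, with sums of 73.9 and 13.2 CPM for 5 tumor cell markers (4 detected in the responding library, where Krt19 was at 0) and 14.8 and 0.76 CPM for 6 dendritic cell markers (4 detected in each library), and their part was not tested. By CPM Tnf was thus higher in macrophages than in neutrophils by a log2 ratio of 1.10 (0.99 to 1.22) in the non-responding library and by 0.16 (0.11 to 0.22) in the responding one. The median over all genes for this contrast was 1.22 and 1.05, so Tnf was below the median gene in both libraries. The contrast of the classes was not recomputed at equal depth.

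More neutrophils carried Tnf RNA in the responding library, and their level per positive cell was alike. With cells brought to a common depth of 1000 UMIs by random draws, for which 0 and 4 neutrophils were too shallow, 11.8% of neutrophils (72 of 612, exact binomial interval 9.32% to 14.6%) had a Tnf UMI in the non-responding library and 29.4% (494 of 1682, 27.2% to 31.6%) in the responding one. Without thinning the shares were 24.3% and 49.5%. Neutrophils with a Tnf UMI after thinning held a mean of 2.35 Tnf UMIs in either library. In macrophages the thinned shares were 27.6% (24.5% to 30.9%) and 32.4% (29.4% to 35.5%), and 26 and 37 cells were left out. Macrophages with a Tnf UMI after thinning held a mean of 1.78 and 1.98 Tnf UMIs, fewer than such neutrophils. No B cell of 31 and 27 had a Tnf UMI after thinning, with upper limits of 11.2% and 12.8%, and T/NK cells, whose median depth was 5605 and 5542.5 UMIs, had one in 6.85% (2.26% to 15.3%) and 2.13% (0.26% to 7.48%). The responding neutrophils and the macrophages of both libraries were above these T/NK intervals, while the interval of the non-responding neutrophils overlapped that of the T/NK cells. The neutrophil UMIs of Tnf were unevenly spread, with 67.9% of them in the richest 5% of cells in the non-responding library and 41.6% in the responding one.

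**Figure D1:**
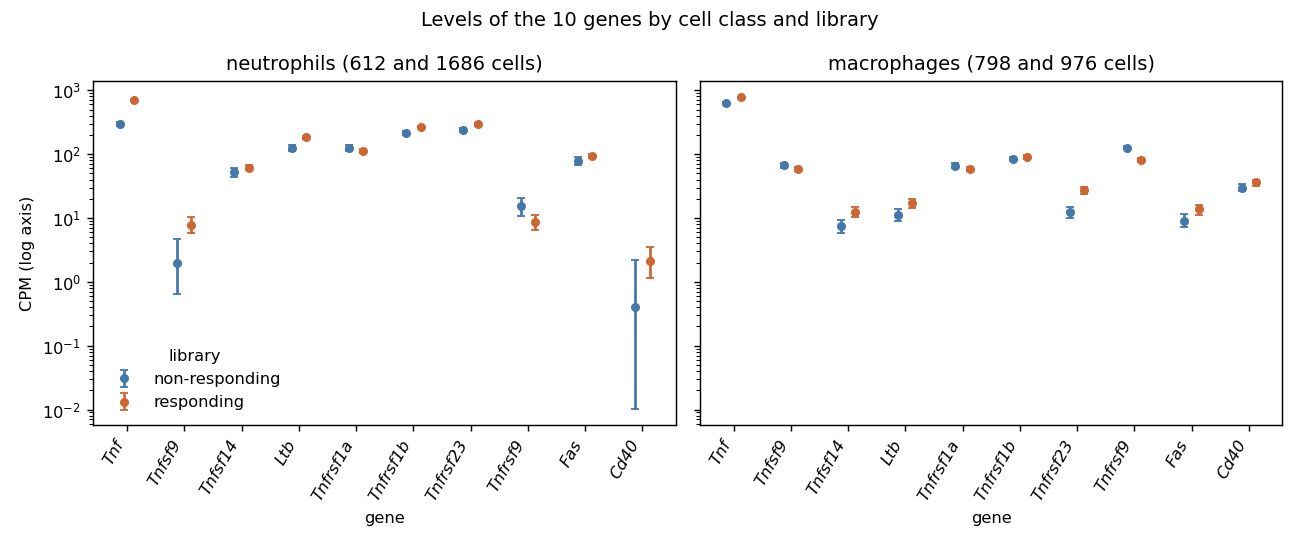
CPM of the 10 genes (log axis) in neutrophils and macrophages of the non-responding and responding libraries, with exact Poisson 95% intervals for counting error as bars and 1 pooled library per point. Tnf was at 292 and 693 CPM in neutrophils, and Tnfsf9, Tnfrsf9 and Cd40 were higher in macrophages than in neutrophils.

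The level of Tnf also differed with the S100 content by which neutrophils were defined. Cells outside the macrophage and lymphoid classes were placed in 5 bands of S100a8 and S100a9, the upper 3 of which also hold the cells kept out of the neutrophils by their C1q and Apoe. From 1.5% to under 5% of UMIs Tnf had 679 CPM (614 to 750) in the non-responding and 1147 CPM (1101 to 1193) in the responding library. From 5% to under 10% it had 374 CPM (323 to 431) and 781 CPM (740 to 824), and at 10% or more 120 CPM (103 to 138) and 356 CPM (336 to 377). In the unclassed band from 0.5% to under 1.5% it had 455 CPM (364 to 563) and 1926 CPM (1827 to 2029). Below 0.5% it had 683 CPM (625 to 746) and 1188 CPM (1133 to 1244). The responding library was thus higher within each of the 5 bands, with log2 ratios from 0.76 to 2.08, and Tnf was lowest where S100 was highest in both libraries. Macrophage markers differed between the bands as well: the summed level of the 7 genes of the macrophage rule was 5051 and 3245 CPM in the band from 1.5%, 1087 and 1074 CPM in that from 5%, and 521 and 677 CPM in that from 10%, and their part in the Tnf level was not tested. In neutrophils with the macrophage sum under 0.1% of UMIs, the Tnf log2 ratio was 1.10.

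**Figure D2:**
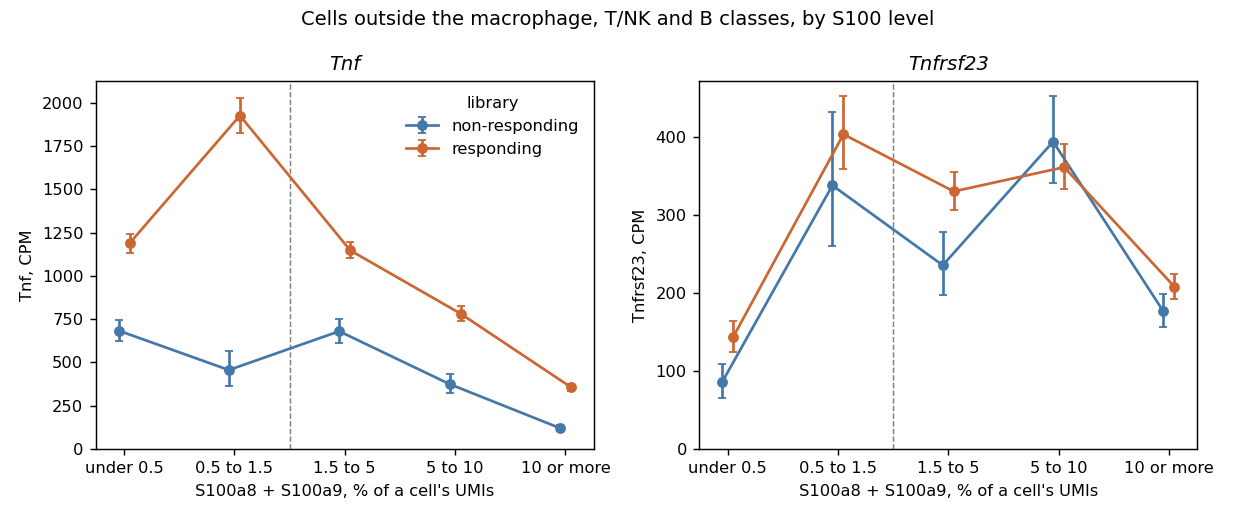
CPM of Tnf and Tnfrsf23 in cells outside the macrophage, T/NK and B classes, by the percent of a cell's UMIs from S100a8 and S100a9, with exact Poisson 95% intervals as bars. Cells right of the dashed line meet the neutrophil S100 limit of 1.5%; Tnf in the responding library lies above the non-responding one in each band, from 356 against 120 CPM to 1926 against 455 CPM.

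Tnfsf9, which encodes the CD137 ligand, was mainly a macrophage gene in these cells. It had 66.7 CPM (61.4 to 72.4) in macrophages of the non-responding and 58.8 CPM (53.9 to 63.9) in those of the responding library, a log2 ratio of -0.18 (-0.35 to -0.01), and the intervals of the levels overlapped. In neutrophils it had 5 and 52 UMIs, that is 1.998 CPM (0.65 to 4.66) and 7.90 CPM (5.90 to 10.36), with 17 of the 52 UMIs in 1 cell. That log2 ratio of 1.98 (0.67 to 3.67) was 2.15 without the richest cell of each library, 0.17 without the 5% of neutrophils with the most UMIs and 0.50 with the unclassed cells added. T/NK and B cells together held 1 Tnfsf9 UMI.

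Tnfsf14, the gene of the ligand LIGHT, and Ltb, which encodes lymphotoxin beta, were both higher in neutrophils than in macrophages. Tnfsf14 had 51.9 CPM (43.4 to 61.7) and 61.6 CPM (55.7 to 67.8) in neutrophils and 7.41 CPM (5.72 to 9.45) and 12.4 CPM (10.26 to 14.9) in macrophages, giving log2 ratios between the libraries of 0.24 (-0.04 to 0.54) and 0.74 (0.29 to 1.20). Ltb had 127 CPM (113 to 141) and 184 CPM (174 to 194) in neutrophils, a log2 ratio of 0.54 (0.36 to 0.72). In macrophages Ltb had 11.2 CPM (9.07 to 13.6) and 17.0 CPM (14.5 to 19.9), for a log2 ratio of 0.61 (0.23 to 0.98). For Ltb the libraries' intervals were apart in both classes, while for Tnfsf14 they were apart in macrophages and overlapped in neutrophils. Ltb is a known lymphocyte gene, and T/NK cells had 428 CPM (371 to 492) and 285 CPM (241 to 334) of it and B cells 222 CPM (155 to 307) and 240 CPM (174 to 322). T/NK cells were thus above neutrophils in both libraries, and above B cells in the non-responding one, while the intervals of T/NK and B cells overlapped in the responding one. Of 10 T and NK cell markers 3 and 5 were detected in neutrophils, at a sum of 29.96 and 24.5 CPM, of which Cd3d alone made up 29.2 and 22.5 CPM, and Cd3g, Trbc1, Ncr1, Gzma and Klrb1c were at 0 in both libraries.

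Of the TNF receptors, Tnfrsf1a, the death domain receptor found on most cells, had 124 CPM (111 to 139) and 110 CPM (103 to 119) in neutrophils and 66.2 CPM (60.9 to 71.8) and 58.8 CPM (53.9 to 63.9) in macrophages. Its log2 ratio between the libraries was -0.17 in both classes, with intervals of -0.36 to 0.03 and -0.34 to -0.00. Tnfrsf1b, the receptor without a death domain that is found mainly on blood and endothelial cells, had 215 CPM (198 to 234) and 265 CPM (252 to 277) in neutrophils, a log2 ratio of 0.30 (0.16 to 0.44). In macrophages it had 84.3 CPM (78.3 to 90.6) and 91.4 CPM (85.4 to 97.7), a ratio of 0.12 (-0.03 to 0.26) whose interval spans 0. T/NK cells had 90.7 CPM (65.7 to 122) and 90.5 CPM (66.7 to 119.9) of Tnfrsf1b, which overlaps the intervals of macrophages, and 6.33 and 7.54 CPM of Tnfrsf1a. Neither receptor was past 1.5-fold between the libraries in either class. The share of neutrophils with a Tnfrsf1b UMI at 1000 UMIs was 22.5% in the non-responding and 22.4% in the responding library. The Tnfrsf1b log2 ratio in neutrophils was -0.002 with thinned cells and 0.15 as a mean over cells, so it depends on the setting.

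Tnfrsf23, a decoy receptor for the ligand TRAIL that lacks a signaling domain, was about as common in neutrophils of either library and far lower in macrophages. It had 240 CPM (221 to 260) and 293 CPM (280 to 307) in neutrophils, a log2 ratio of 0.29 (0.16 to 0.42), with 24.0% of cells positive at 1000 UMIs in both libraries. That ratio was 0.07 with thinned cells and 0.09 as a mean over cells. In macrophages Tnfrsf23 had 12.2 CPM (10.0 to 14.7) and 27.2 CPM (23.9 to 30.7), for a log2 ratio of 1.16 (0.82 to 1.495). The neutrophil genes S100a8 and S100a9 differed in the same direction in macrophages, with a sum of 544 and 1081 CPM, while the neutrophil marker list had 227 and 253 CPM. Among macrophages with S100a8 and S100a9 under 0.05% of UMIs, 629 and 540 cells, Tnfrsf23 had 10.5 CPM (8.32 to 13.1) and 17.6 CPM (14.4 to 21.2), for a log2 ratio of 0.74. Among the other 169 and 436 macrophages it had 23.6 CPM (15.6 to 34.4) and 46.7 CPM (39.4 to 55.0). The same split gave Tnfsf14 7.35 and 11.02 CPM, Ltb 11.3 and 16.9 CPM and Fas 8.00 and 10.5 CPM in the macrophages low in S100, and the part of neutrophil RNA in these values was not tested.

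Tnfrsf9, the gene of the costimulatory receptor CD137, was at a lower level in macrophages of the responding library. It had 126 CPM (118 to 133) in macrophages of the non-responding and 80.0 CPM (74.3 to 85.9) in those of the responding library, a log2 ratio of -0.65 (-0.79 to -0.52), which was no longer past 1.5-fold with thinned cells (-0.49) or in macrophages low in S100 (-0.53). A small part of the macrophages held most of it, since the richest 5% of cells held 74.4% and 75.9% of its UMIs, with up to 66 and 49 UMIs in a cell. The share of macrophages with a UMI at 1000 UMIs was 6.35% (4.73% to 8.30%) and 5.32% (3.98% to 6.96%), so that a difference in the share was not detectable at this depth. T/NK cells had 118 CPM (89.3 to 153) and 67.8 CPM (47.5 to 93.9), intervals that overlap slightly. In neutrophils Tnfrsf9 had 38 and 56 UMIs, at 15.2 CPM (10.7 to 20.8) and 8.51 CPM (6.43 to 11.1), for a log2 ratio of -0.84 (-1.45 to -0.20). A single neutrophil of the non-responding library held 13 of the 38, and without the richest neutrophil of each library the ratio was -0.34.

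Fas, the death receptor for Fas ligand, had 77.5 CPM (67.0 to 89.2) and 93.9 CPM (86.7 to 102) in neutrophils and 9.12 CPM (7.24 to 11.4) and 13.6 CPM (11.3 to 16.2) in macrophages, with log2 ratios of 0.28 (0.04 to 0.52) and 0.57 (0.16 to 0.997). The counting intervals of the libraries overlapped in neutrophils and, by a narrow margin, in macrophages, although the intervals of both ratios lay above 0. Cd40, the receptor by which T cells license antigen-presenting cells, had 29.7 CPM (26.2 to 33.5) and 36.0 CPM (32.2 to 40.0) in macrophages, a log2 ratio of 0.28 (0.04 to 0.52). It had 1 and 14 UMIs in neutrophils, which is too few for a ratio, and 18.5 and 43.6 CPM in B cells from 3 and 8 UMIs.

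Of the 9 members with at least 30 UMIs in neutrophils of both libraries together, 2 were higher in the responding library past 1.5-fold, Tnf and Tnfsf9, beside 11.9% of all 7606 genes so measured, and 1 was lower, Tnfrsf9, beside 4.75%. In macrophages, of 10 members, 3 were higher (Tnfrsf23, Tnfsf14 and Ltb) beside 4.93% of 10681 genes, and 1 was lower (Tnfrsf9) beside 5.2%. With thinned cells Tnfrsf23 alone was higher, and no member was lower. Tnfsf14 and Ltb then had fewer than 30 UMIs, at log2 ratios of 0.37, within 1.5-fold, and 1.40. Ltb at 0.61 and Fas at 0.57 were the members just inside and just outside the limit of 0.58 on the log2 scale. The median log2 ratio over the 10 members was 0.29 in neutrophils, where that over all genes was 0.05, and 0.29 in macrophages, where it was -0.03. Between the classes, in the non-responding library 4 members were higher in macrophages (Tnf, Tnfsf9, Tnfrsf9 and Cd40) beside 63.7% of genes, and 6 were lower beside 15% of genes. In the responding library 3 were higher, beside 61.1%, as Tnf was no longer past the limit, and the same 6 genes, Tnfrsf1a, Tnfrsf1b, Tnfrsf23, Tnfsf14, Ltb and Fas, were lower beside 16.5%. These 6 thus formed the neutrophil side of the family in both libraries, with log2 ratios of macrophages over neutrophils from -0.91 for Tnfrsf1a to -4.30 for Tnfrsf23 in the non-responding library and from -0.91 to -3.43 in the responding one.

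**Figure D3:**
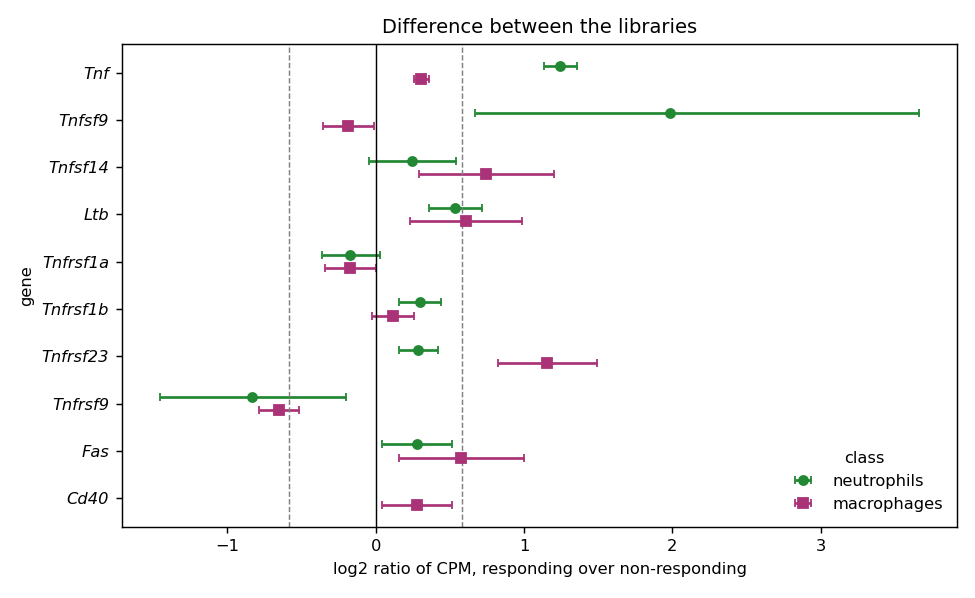
Log2 ratio of CPM (responding over non-responding) of each gene in neutrophils (circles) and macrophages (squares), with exact conditional 95% intervals for counting error as bars; dashed lines mark 1.5-fold. Tnf in neutrophils (1.24) and Tnfrsf23 in macrophages (1.16) have intervals wholly beyond the line, as does Tnfsf9 in neutrophils, whose interval runs from 0.67 to 3.67, and Cd40 in neutrophils is left out for want of UMIs.

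Cells were then compared within each library by their state, scored on thinned UMIs of short gene lists that hold no member, with cells above the pooled 75th percentile called high and those at or below the pooled median called low. The genes of a list may share regulation or depth with a member, so these are descriptions within a library. Depth moved with the state: the median was 3332 against 2880 UMIs in the non-responding and 3111 against 2788 in the responding library for chemokine-high against chemokine-low neutrophils, and 4627 against 2837 UMIs in the non-responding and 4235 against 2663 in the responding library for those high against low in granule genes, and its part was not tested. In neutrophils Tnf was tied to the chemokine genes Ccl3, Ccl4, Cxcl2 and Cxcl3: chemokine-high cells had 951 CPM against 123 CPM in low cells in the non-responding library, a log2 ratio of 2.95 (2.69 to 3.21), and 1278 against 373 CPM in the responding one, a ratio of 1.78 (1.67 to 1.88). High cells were 16.5% of neutrophils in the non-responding library and 27.8% in the responding one. Between the libraries Tnf differed by a log2 ratio of 0.43 (0.26 to 0.60) within high cells and 1.60 (1.38 to 1.82) within low cells. Tnfrsf1b was also higher in chemokine-high neutrophils, by 0.74 (0.40 to 1.07) and 0.75 (0.59 to 0.92), as was Tnfrsf23, by 0.40 (0.06 to 0.73) and 0.64 (0.49 to 0.79). Tnfrsf1a went the other way, at -0.48 (-1.10 to 0.09) and -0.60 (-0.90 to -0.32).

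Neutrophils rich in the granule genes Camp, Ngp, Ltf, Lcn2 and Chil3, which mark immature cells, had less of most members. Tnfrsf23 was lower in them by log2 ratios of -1.30 (-1.60 to -1.004) in the non-responding and -0.95 (-1.11 to -0.78) in the responding library, Tnfrsf1b by -1.19 (-1.50 to -0.88) and -0.56 (-0.73 to -0.40), and Tnfsf14 by -1.02 (-1.66 to -0.43) and -0.67 (-1.02 to -0.32). Tnf was at 205 against 379 CPM and 537 against 776 CPM in high against low cells. Neutrophils rich in the interferon-stimulated genes Isg15, Ifit1, Ifit3, Rsad2 and Ifit2 had more of several members. Tnfsf14 differed by 1.25 (0.64 to 1.84) and 0.52 (0.17 to 0.87), Fas by 1.06 (0.54 to 1.57) and 0.53 (0.24 to 0.81), and Tnfrsf1a by 0.85 (0.41 to 1.27) and 0.76 (0.50 to 1.01). Tnf differed less there, by 0.44 (0.13 to 0.75) and 0.29 (0.18 to 0.39), and the Tnf ratio between the libraries was 1.29 (1.01 to 1.59) within interferon-high and 1.44 (1.30 to 1.59) within interferon-low neutrophils.

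Among macrophages high cells were deeper as well, with medians of 14312 against 5141 and 11514 against 4047 UMIs for the chemokine list, 11434 against 9495.5 and 10396.5 against 8840 for Arg1, Thbs1 and Mmp12, 11691 against 9727 and 12416 against 8414 for Mrc1, Folr2 and Cd163, and 12570 against 9626 and 11801 against 7941.5 for MHC class II. For the interferon list the medians were 14658 against 8707 and 12453 against 5901 UMIs. The part of depth was not tested. Tnfrsf9 was found mainly in macrophages high in Arg1, Thbs1 and Mmp12, at 308 CPM against 37.9 CPM in low cells of the non-responding library and 220 against 21.6 CPM in the responding one, with log2 ratios of 3.03 (2.79 to 3.27) and 3.35 (3.06 to 3.65). The lower level in the responding library held within both parts, at -0.48 (-0.66 to -0.31) in high and -0.81 (-1.15 to -0.47) in low cells of this list. Its ligand gene Tnfsf9 was higher in the same cells by 0.47 (0.19 to 0.74) and 0.81 (0.52 to 1.10), while Ltb was lower by -1.96 (-3.23 to -0.90) and -1.37 (-2.25 to -0.58). Cells high in Mrc1, Folr2 and Cd163, genes of resident-type macrophages, had 20.0 CPM of Tnfrsf9 against 161 CPM in low cells of the non-responding library, but 87.5 against 87.7 CPM in the responding one. Within these high cells, 129 and 73 in number, Tnfrsf9 was thus higher in the responding library, by a log2 ratio of 2.13 (1.52 to 2.78), against the direction of the whole class. This ratio rests on 31 and 79 UMIs and was not recomputed without the richest cells. In the whole class a single macrophage held up to 66 and 49 Tnfrsf9 UMIs, so a few cells may weigh heavily in it. The Tnfrsf9 ratio between the libraries was -0.15 (-0.40 to 0.09) within chemokine-low macrophages. Within MHC class II-high macrophages it was -0.07 (-0.40 to 0.28), so both intervals span 0. Chemokine-high macrophages had more Tnfsf9, by 1.75 (1.44 to 2.06) and 1.44 (1.11 to 1.77), and more Tnf, by 1.08 (0.98 to 1.18) and 1.66 (1.57 to 1.75). Between the libraries the Tnf ratio was 0.55 (0.47 to 0.63) within chemokine-high and -0.03 (-0.14 to 0.07) within chemokine-low macrophages. For MHC class II it was -0.07 (-0.17 to 0.02) within high and 0.42 (0.34 to 0.50) within low cells. For the interferon list it was -0.02 (-0.11 to 0.07) within high and 0.21 (0.12 to 0.29) within low cells. For the lists of Cxcl9 and Cxcl10, of Arg1, Thbs1 and Mmp12, and of Mrc1, Folr2 and Cd163, its interval lay above 0 within both parts. Macrophages high in the MHC class II genes H2-Aa, H2-Ab1, H2-Eb1 and Cd74 had more Cd40, by 0.83 (0.41 to 1.26) and 0.75 (0.36 to 1.13), and more Ltb, by 2.15 (1.47 to 2.85) and 1.11 (0.55 to 1.68). Tnfrsf23 was lower in MHC class II-high macrophages of the responding library, at 10.1 against 43.2 CPM, whereas in the non-responding library it was at 9.30 against 12.4 CPM with an interval of the ratio that spans 0.

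**Figure D4:**
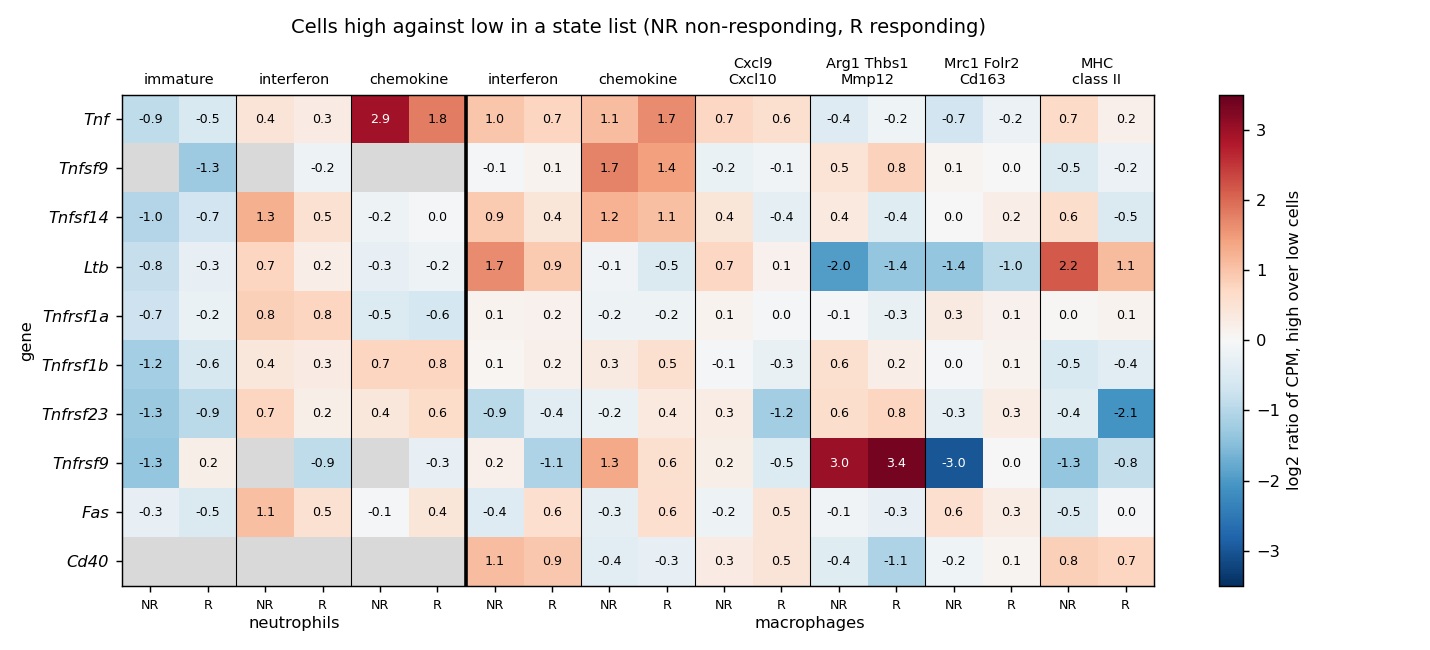
Log2 ratio of CPM in cells high against cells low in a state list, for each gene (rows) and list in neutrophils and macrophages (columns, with the non-responding library NR and the responding library R side by side); grey marks fewer than 30 UMIs or none in one part. Among the deepest red cells are Tnfrsf9 in macrophages high in Arg1, Thbs1 and Mmp12 (3.03 and 3.35) and Tnf in chemokine-high neutrophils (2.95 and 1.78).

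At 1000 UMIs a single member was seen in more cells than 2 or more, narrowly so in responding neutrophils. A neutrophil carried none of the 10 genes in 34.5% of the non-responding and 28.5% of the responding cells. It carried exactly 1 in 39.9% and 37.5%, and at least 2 in 25.7% and 34.1%. A macrophage carried none in 54.8% and 49.8%, exactly 1 in 33.9% and 37.8%, and at least 2 in 11.3% and 12.4%. Neutrophils with Tnf also carried Tnfrsf1b in 25% and 25.9% of cases, against 22.2% and 21.0% of neutrophils without it. In the responding library Ltb was in 21.1% of neutrophils with Tnf and 11.03% of those without, and in the non-responding one in 9.72% and 12.0%, from 7 cells with both. In macrophages Tnfsf9 and its receptor gene Tnfrsf9 were seen together in 4 and 3 cells.

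The genes whose thinned counts ran most like Tnf across neutrophils were Ccl3, Il1a, Bcl2a1b, Ccrl2 and Nfkbia, of 981 genes detected in at least 10% of cells in both libraries. Their Pearson r, taken as the lower of both libraries over 612 and 1682 cells, was 0.25 for Ccl3 and 0.23 for Nfkbia. In macrophages they were Ccl4, Malt1, Malat1, Nfkbia and Cxcl2, of 1186 genes over 772 and 939 cells, with 0.33 for Ccl4 and 0.24 for Cxcl2. These correlations are weak and describe cells that share a library.

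Among 37 other genes of the superfamily, 9 had at least 30 UMIs in neutrophils and 17 in macrophages. In neutrophils 3 of 9 were higher in the responding library past 1.5-fold and 1 was lower, beside 11.9% and 4.75% of all genes. Those higher were Tnfrsf26, the relative and neighbor of Tnfrsf23, at 67.1 and 103 CPM (log2 ratio 0.62, 0.37 to 0.87), Tnfrsf13b, the receptor TACI, at 4.79 and 9.73 CPM (1.02, 0.12 to 2.05), and Tnfsf13b, the B cell factor BAFF, from 7 and 39 UMIs (1.08, -0.09 to 2.49). Tnfrsf12a, the receptor of TWEAK, was lower, at 11.2 and 6.08 CPM (-0.88, -1.61 to -0.13). Ltbr, Relt, Tnfrsf10b, Tnfrsf21 and Tnfsf13 lay between -0.08 and 0.28. In macrophages 4 of 17 were higher and 1 was lower, beside 4.93% and 5.2% of all genes. Tnfsf10, the gene of TRAIL, had 1.03 and 3.42 CPM (1.74, 0.64 to 2.99), Tnfsf15 2.62 and 6.74 CPM (1.36, 0.65 to 2.12), Tnfsf13b 8.78 and 21.8 CPM (1.31, 0.93 to 1.71) and Tnfsf8 12.7 and 20.8 CPM (0.71, 0.37 to 1.06), and Tnfsf4, the OX40 ligand, was lower at 4.90 and 2.78 CPM (-0.82, -1.58 to -0.08). The other 12 (Ltbr, Relt, Tnfrsf11a, Tnfrsf12a, Tnfrsf13b, Tnfrsf14, Tnfrsf21, Tnfrsf22, Tnfrsf26, Tnfsf12, Tnfsf13 and Tnfsf13os) were within 1.5-fold, from -0.51 for Tnfrsf21 to 0.35 for Tnfrsf12a. Of these Tnfsf13os is listed as an opposite-strand transcript of Tnfsf13, so that their reads may not be told apart, and Tnfrsf22 shares sequence with Tnfrsf23. The median over the measured genes of the list was 0.14 in neutrophils and 0.10 in macrophages. Of the members known from lymphocytes, T/NK cells held 148 and 33 UMIs of Tnfrsf4, 91 and 51 of Tnfrsf18, 63 and 53 of Cd27, 63 and 52 of Tnfsf8, 28 and 2 of Tnfsf11, 16 and 14 of Fasl and 11 and 20 of Tnfsf10, and B cells 76 and 69 of Tnfrsf13c and 19 and 13 of Tnfrsf13b. The larger myeloid classes also held some of these, with 111 and 194 UMIs of Tnfsf8 and 311 and 354 of Tnfrsf13b in macrophages and 1 and 16 of Fasl in neutrophils.

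Downstream of the receptors, a list of genes known to be induced by TNF through NF-kappaB was examined. It was chosen with earlier results of these data known, so its counts describe the list and are no independent support. Of 21 such genes, all measured in neutrophils, 8 were higher past 1.5-fold, beside 11.9% of all genes, and 0 lower, beside 4.75%. The median log2 ratio was 0.49, beside 0.05 over all genes. Tnfaip6 went the other way in neutrophils within 1.5-fold, at 104 and 73.6 CPM (-0.50, -0.72 to -0.28). Il6, a cytokine, had 7 and 86 UMIs (2.22, 1.12 to 3.58), Icam1, an adhesion molecule, 113 and 251 CPM (1.16, 0.97 to 1.35), and Ccl2, a monocyte attractant, 97.5 and 189 CPM (0.95, 0.75 to 1.16). Il6 and Ccl2 are also macrophage genes, at 112 and 112 CPM and 859 and 873 CPM in macrophages, and the part of macrophage RNA in the neutrophil values was not tested. In macrophages 1 of 21 was higher, Tnfaip6 (3.19 and 8.35 CPM, 1.39, 0.75 to 2.06), beside 4.93% of all genes, 0 were lower, and the median was 0.05, beside -0.03 over all genes. Of 25 measured adaptor and kinase genes in neutrophils 3 were higher, a share near the 11.9% of all genes, and 0 lower, with a median of 0.16: Traf6, a ubiquitin ligase (1.30, 0.84 to 1.79), Cflar, which restrains caspase 8 (0.82, 0.71 to 0.94), and Rbck1, a part of the linear ubiquitin ligase complex (0.66, 0.01 to 1.37). In macrophages 1 of 29 was higher, Rnf31 (0.73, 0.34 to 1.13), beside 4.93% of all genes, 0 were lower, and the median was 0.10. Of 9 genes for shedding and for turnover of TNF RNA, 7 were measured in each class and 0 were past 1.5-fold, with medians of 0.14 and -0.06. Among them Zfp36, whose protein destabilizes Tnf RNA, had 1011 and 1257 CPM in neutrophils and 1085 and 851 CPM in macrophages.

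**Figure D5:**
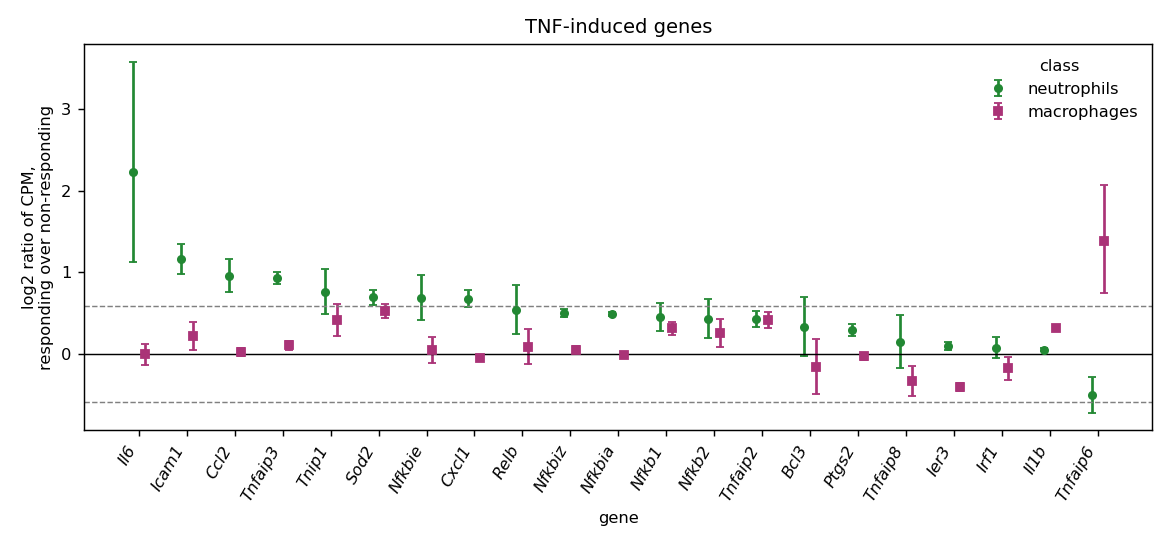
Log2 ratio of CPM (responding over non-responding) of 21 TNF-induced genes in neutrophils (circles) and macrophages (squares), ordered by the neutrophil value, with exact conditional 95% intervals for counting error as bars and dashed lines at 1.5-fold. In neutrophils 8 genes lie above the upper line, led by Il6 (2.22), and in macrophages Tnfaip6 (1.39) does.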

How the data were processed

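For each group the authors deposited 1 matrix of unnormalized UMI counts (genes by barcodes) from 1 pooled 10x library of GR1+ cells per group, aligned to mm10 (GRCm38). Cell Ranger 4.0.0 is named in the submitters' processing notes and the matrix headers, and a later version in the methods. The libraries held 2947 and 5004 barcodes with 21855657 and 24303957 UMIs.

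Cell limits follow the study's methods, but leave more cells here than the methods report, for a reason not known. The members and the gene lists were chosen with earlier results of these data known. Cells were classed by the marker limits given in the text, not by clustering. Near the limits were 70 and 269 cells with S100a8 and S100a9 from 1% to under 2% of UMIs, and 56 and 142 with the macrophage sum from 0.2% to under 0.4%. The C1q and Apoe limit kept 11 and 53 cells with enough S100a8 and S100a9 out of the neutrophils. No doublets were removed otherwise. UMIs were summed per class and library. CPM has exact Poisson, shares exact binomial (Clopper-Pearson) and log2 ratios exact conditional intervals, all at 95%. Differences are called past 1.5-fold for genes whose UMIs in the libraries add up to 30 or more. Medians over members use those with at least 10 UMIs. For shares, states and likeness each cell was thinned to 1000 UMIs. No p-value was computed. Other genes are named by rule: up to 3 genes of a list at either end past 1.5-fold, other superfamily genes with at least 30 UMIs in a class, and the 5 genes most like Tnf. Zfp36 was named after its values were seen. Positions come from GENCODE on GRCm38. The calculation of the ratios and their intervals was checked on simulated independent counts, which follow the model that the intervals assume. This check says nothing of UMIs that cluster in few cells, as those of Tnf and Tnfrsf9 do, for which the intervals are too narrow. Python 3.11.15, scipy 1.17.1, edgeR 4.0.16 and DESeq2 1.42.0 (scaling factors only) were used. Flow cytometry, CyTOF, bulk and human data were not analysed here. A further macrophage marker of the check is not reported here.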

Additional observations from a re-analysis of the deposited data

Results flagged for a closer look

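Between the cell classes, Tnfsf9 differed between the libraries in opposite directions, higher in the responding library in neutrophils (log2 ratio 1.98, from 5 and 52 UMIs) and lower in macrophages (-0.18, from 585 and 549 UMIs). In neutrophils 17 of the 52 UMIs were in 1 cell, and the ratio was 0.17 without the 5% of cells with the most UMIs. With thinned cells the macrophage ratio was 0.11, so the opposite directions depend on the setting. The difference between the classes was not tested, as there is 1 library per group.

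The unclassed cells, 212 in the non-responding and 676 in the responding library, enter no comparison of the classes and carried several members at higher levels in the responding library. Tnf had 591 and 1324 CPM there (log2 ratio 1.16, 1.04 to 1.29), Fas 31.7 and 73.2 CPM (1.21, 0.67 to 1.79), Tnfrsf23 127 and 208 CPM (0.71, 0.44 to 0.9997) and Ltb 84.4 and 128.7 CPM (0.61, 0.27 to 0.96), while Tnfrsf9 was lower, at 126.7 and 68.3 CPM (-0.89, -1.22 to -0.56). The Tnfrsf9 values rest on 132 UMIs in 16 cells and 182 UMIs in 50 cells, with up to 31 and 12 UMIs in a cell. The 6 neutrophil check markers and the 7 genes of the macrophage rule were both present in the unclassed cells, at sums of 1408 and 2315 CPM and 3588 and 3205 CPM, as were tumor cell markers, at 80.6 and 243.5 CPM. Dendritic cell markers were present too, at a sum of 254 and 109 CPM. Of the unclassed cells 50.9% and 66.7% held at least 2 of the 6 neutrophil check markers, and Tnf was at 786 and 1595 CPM in these and at 418 and 882 CPM in the rest.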

How the results depend on the processing

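Of 12 other settings, 4 of them chosen after the data were seen, 11 applied to the log2 ratios of neutrophils (7 gave a value for Cd40) and 10 to those of macrophages. Of 206 values so obtained, 200 kept the sign. This count includes the TMM and DESeq2 scalings, whose constant shifts, given below, were too small to change the sign of any member. It also includes the removal of barcodes found in both libraries, which took out few cells. In macrophages thinned cells gave 0.11 for Tnfsf9 and -0.28 for Cd40. Tnfrsf1b was at -0.002 in thinned neutrophils and at -0.003 in macrophages with S100a8 and S100a9 under 0.05% of UMIs. Tnf in neutrophils was 1.52 with stricter class limits (S100 at least 3%) and 1.10 in neutrophils with the macrophage sum under 0.1% of UMIs, and it stayed between these values under the other settings. Tnfrsf9 in neutrophils reversed to 0.15 and 0.029 under the same settings, respectively. The neutrophil median of 0.29 became 0.17 without the 5% of cells with the most UMIs and 0.069 with thinned cells, and the macrophage median of 0.29 became 0.42 at a mitochondrial limit of 5%. The members higher past 1.5-fold in neutrophils were 1 (in place of 2) without the 5% of deepest cells, with thinned cells and with the unclassed cells added, and 3 without the richest cell. Those lower were 0 (in place of 1) with stricter limits, with means over cells, with thinned cells, without the richest cell and with the macrophage sum under 0.1%. In macrophages thinning left 1 higher (in place of 3) and 0 lower (in place of 1), and the limit of 0.05% on S100 left 0 lower. The members higher in macrophages were 4 with either scaling and with means over cells, and 2 with stricter limits and without the 5% of deepest cells. The causes were not tested. Scaling by edgeR's TMM or DESeq2 shifted each ratio by -0.04 or -0.05 in neutrophils and by 0.03 in macrophages. Shares without thinning were outside the thinned interval for 38 of 40 values. No paired analysis was possible because each group has 1 library, so no library could be left out either.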
